A study of Mus musculus with 4 samples.

Results

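The 10 genes described here encode proteins that control the stability of cytokine mRNA, measured by RNA sequencing in mouse T helper 17 (Th17) cells, CD4 T cells that secrete IL-17. They are the ZFP36 family (Zfp36, Zfp36l1, Zfp36l2), the Roquins (Rc3h1, Rc3h2), the Regnases (Zc3h12a, Zc3h12c, Zc3h12d) and a pair of mRNA stabilisers (Arid5a, Elavl1). They were chosen by symbol and name, and each matched a single gene ID, 10 of the 50600 genes in the deposited tables. The study holds 4 libraries of total RNA from primary Th17 cells of strain C57BL/6NJ, a single group with no treatment, genotype or control to set against it. The labels number them as biological replicates 1 to 4 under a shared donor label and leave sex and age open. No label states that each library had an animal or culture of its own. The p-values for pairs of genes depend here only on whether these libraries agree in direction. Those for variation measure only the spread between these libraries, which may be partly technical. The library protocol linked from the labels names poly(A)-tailed RNA, and the name of the authors' counting output carries 48 hours, a time the labels do not repeat. In bulk libraries such as these, fewer cells that express a gene and less RNA per cell cannot be told apart.

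As background, many cytokine mRNAs are short-lived because proteins bind their 3′ untranslated region (3′ UTR). ZFP36 proteins bind AU-rich elements through a pair of CCCH zinc fingers and recruit the CCR4-NOT complex, which shortens the poly(A) tail. Roquins bind small stem-loops and recruit the same complex, while Regnase-1, the product of Zc3h12a, is an endonuclease that cuts such stem-loops. ARID5A and HuR, the product of Elavl1, bind cytokine mRNAs and protect them from decay, and HuR has been reported to stabilise Il17a mRNA in mouse Th17 cells. In activated T cells the protease MALT1 cleaves Regnase-1 and the Roquins.

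The sequences at issue are short. The following sites are 25-base stretches of 3′ UTRs of GENCODE M21 principal transcripts, read on the transcript strand in mm10, with T for U. Capitals mark TATTTAT, the AU-rich heptamer that ZFP36 proteins bind, and the position is that of its first base after the stop codon. Examples are shown from the ZFP36 family and Elavl1, whose own transcripts hold the heptamer, and from Tnf and Il17a as reported target transcripts. Rc3h1, Rc3h2 and Zc3h12c also hold it in their own transcripts and are not shown.
Zfp36, position 575, chr7:28376968-28376992, minus strand: tgggcccttTATTTATgacgacttt
Zfp36, position 590, chr7:28376953-28376977, minus strand: tgacgacttTATTTATtgtattaag
Zfp36, position 615, chr7:28376928-28376952, minus strand: attttatagTATTTATatatattgg
Zfp36l1, position 1150, chr12:80108424-80108448, minus strand: atcaaaacgTATTTATtgccaaact
Zfp36l2, position 822, chr17:84184916-84184940, minus strand: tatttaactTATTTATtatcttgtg
Elavl1, position 3795, chr8:4285790-4285814, minus strand: catgaaaatTATTTATttatttatt
Tnf, position 439, chr17:35199691-35199715, minus strand: tgcacttatTATTTATtatttattt
Il17a, position 343, chr1:20734193-20734217, plus strand: taaagcctaTATTTATatgagctat

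A second motif is the hairpin of the constitutive decay element, which Roquins bind. It was searched by letters alone as TTCNNNGAA, with the NNN loop limited to a pyrimidine, a purine and a pyrimidine. Matches are in capitals here. Pairing of the bases beside a match was not required. These bases cannot pair in the Arid5a site (c and t) or the Elavl1 site (a and a). The sites shown are those in the regulators' own transcripts (Rc3h1, Rc3h2, Arid5a and Elavl1), with 4 in transcripts reported as Roquin or Regnase-1 targets.
Rc3h1, position 245, chr1:160968034-160968058, plus strand: tgtttttgTTCTGTGAAtgaacttt
Rc3h1, position 3866, chr1:160971655-160971679, plus strand: ccaataacTTCTGTGAAgttgcctt
Rc3h2, position 1413, chr2:37373804-37373828, minus strand: taattaacTTCTGTGAAgttgttta
Arid5a, position 1933, chr1:36322128-36322152, plus strand: ctccttccTTCTGTGAAtgagagaa
Elavl1, position 2437, chr8:4287147-4287171, minus strand: agttttcaTTCTATGAAaggactag
Tnf, position 549, chr17:35199580-35199604, minus strand: gacatgttTTCTGTGAAaacggagc
Nfkbid, position 218, chr7:30428397-30428421, plus strand: taggtgatTTCTGTGAAatcgagcc
Icos, position 1775, chr1:60999481-60999505, plus strand: aacaaaatTTCTGTGAAataaaatc
Nfkbiz, position 105, chr16:55812609-55812633, minus strand: taagttgtTTCTATGAAacaaaccc

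Library totals ranged from 28555677 to 58104663 fragment counts, and the regulators had between 343 and 16888 counts in a library. The Th17 gene Il17f, a lineage cytokine, was high at 11569 ± 117 TPM (counts divided by exon length, on the same total in each library; SD, n = 4). All 5 Th17 markers and both CD4 T cell markers were detected. Of 10 markers of other cells 1 was at 1 TPM or more in every library, the dendritic and B cell gene H2-Ab1 at 1.45 TPM, with Lyz2 of macrophages and S100a8 and S100a9 of neutrophils at 0 counts in every library while Cd8a of CD8 T cells averaged 0.0612 TPM. The libraries stood apart in sex-linked genes. Xist was at 132, 131, 0.329 and 0.496 TPM in replicates 1 to 4 and Ddx3y, on chromosome Y, at 0.428, 0.347, 58.9 and 57.3. The 4 libraries are therefore not all repeats of a single RNA sample. The part of this division in the regulators' values was not tested, and all values are therefore given by replicate.

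All 10 regulators were expressed, at 1 TPM or more in every library, against 47.0% of protein-coding genes. Their mean levels spanned from 6.12 to 141 TPM with a median of 68.0, beside a median of 31.3 TPM over the 10223 protein-coding genes at 1 TPM or more, and 8 of the 10 lay above that median. From high to low the order was Zc3h12d, Zfp36l1, Zfp36l2, Arid5a, Zc3h12a, Elavl1, Rc3h1, Zfp36, Rc3h2 and Zc3h12c. Of 45 pairs of regulators, 45 kept the same order within each of the 4 libraries. With 4 libraries an exact two-sided sign-flip test has 16 sign patterns and cannot go below p = 0.125, the value it gave for each pair named here, so no pair can pass 0.05. Levels of neighbouring genes nevertheless lay close together at 3 places. The ranges over libraries overlapped between Zc3h12d and Zfp36l1, between Zfp36l1 and Zfp36l2, and between Arid5a and Zc3h12a, and did not for the other 6 neighbours.

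**Figure D1:**
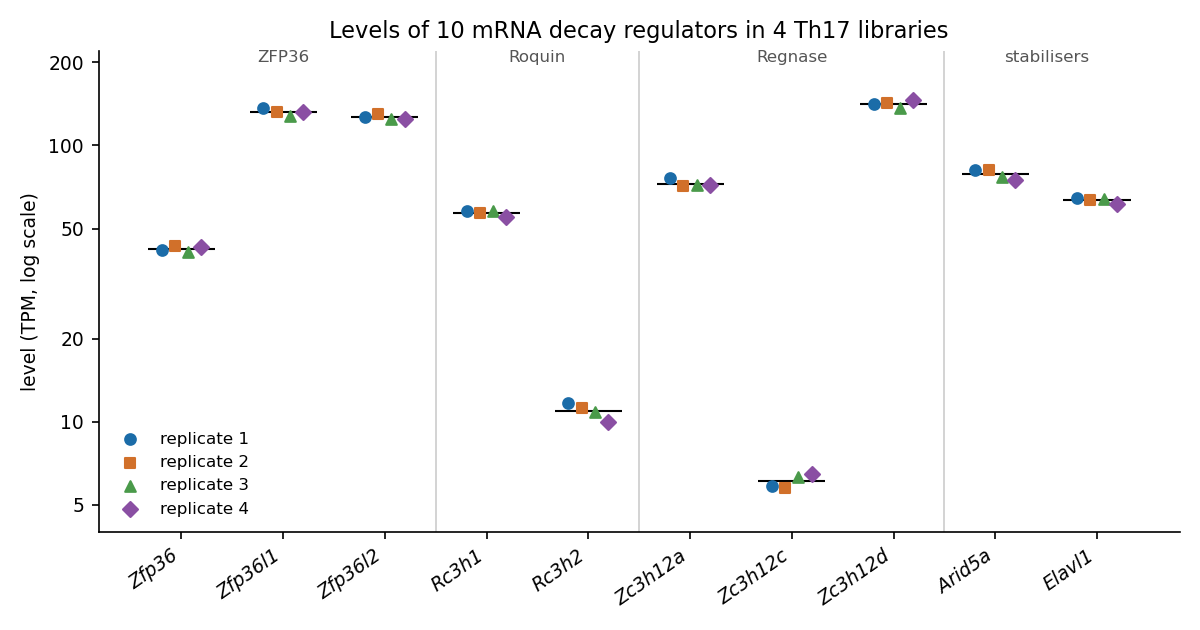
Level of each regulator in TPM (log scale) in the 4 Th17 libraries. Each symbol is a library and the bar is the mean; Zc3h12d, Zfp36l1 and Zfp36l2 lie at 124 TPM or more, while Rc3h2 and Zc3h12c reach no more than 11.7 TPM in any library.

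In the ZFP36 family, the founding member was the lowest. Zfp36 encodes tristetraprolin, whose loss in mice gives TNF-driven inflammation, and its gene lies at chr7:28376784-28380253 in mm10, on the minus strand. It was at 41.8, 43.2, 41.1 and 42.8 TPM in replicates 1 to 4. Zfp36l1 (chr12:80107754-80113013, minus strand), a paralogue with the same zinc finger pair, was at 136, 132, 128 and 132 TPM. Zfp36l2 (chr17:84183931-84187947, minus strand), which acts with Zfp36l1 to hold back thymocyte proliferation in mice, was at 127, 130.3, 124 and 124 TPM. Every library thus had Zfp36 far under both paralogues, and the paralogues close to each other.

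Within libraries, Zfp36 was 3.12-fold lower than Zfp36l1 (log2 ratio -1.64 ± 0.04, SD, n = 4) and 2.99-fold lower than Zfp36l2 (-1.58 ± 0.03), in 4 of 4 libraries each (exact sign-flip p = 0.125). The deposited exon length of Zfp36 is 3470 bases, against 2790 in its principal transcript. With principal transcript lengths the log2 ratios were -1.33 and -1.27. Zfp36l2 differed from Zfp36l1 by a log2 ratio of only -0.06 ± 0.04, lower in 4 of 4 libraries, and on the CPM scale (counts per library total, with no length correction) this turned to 0.18. The 3 genes summed to 301 ± 5.56 TPM. Zfp36l1 gave 43.9 ± 0.66% of that sum, Zfp36l2 42.1 ± 0.549% and Zfp36 14.0 ± 0.25%. The share of Zfp36 stayed between 13.7 and 14.3% over the 4 libraries, with the deposited lengths.

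Of the Roquins, which limit follicular helper T cells and autoimmunity in mice, Rc3h1 was the main transcript. Rc3h1 encodes Roquin-1 and lies at chr1:160906418-160974978 on the plus strand. It was at 57.8, 56.7, 57.8 and 55.1 TPM in replicates 1 to 4. Rc3h2 encodes Roquin-2, which can stand in for Roquin-1, and lies at chr2:37370069-37422903 on the minus strand. It was at 11.7, 11.2, 10.8 and 9.97 TPM, with replicate 4 lowest and replicate 1 highest. Rc3h1 exceeded Rc3h2 by a log2 ratio of 2.37 ± 0.07 (SD, n = 4), or 5.18-fold, in 4 of 4 libraries (exact sign-flip p = 0.125), and gave 83.9 ± 0.661% of their sum. This ratio leans on the exon length of Rc3h2, 19624 bases with all exons joined against 8799 in its principal transcript. With principal transcript lengths, chosen after the data were seen, the log2 ratio was 1.26.

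Among the Regnases, the highest transcript was not that of Regnase-1. Zc3h12d, the gene of Regnase-4 (chr10:7832470-7870396, plus strand), was at 141, 142, 136 and 146 TPM in replicates 1 to 4, and no other regulator had a higher mean level. Zc3h12a, the gene of Regnase-1 (chr4:125118423-125127840, minus strand), a brake on T cell activation, was at 76.0, 71.0, 71.8 and 71.9 TPM. Zc3h12c, the gene of Regnase-3 (chr9:52111344-52168572, minus strand), was at 5.87, 5.78, 6.33 and 6.48 TPM. The values of the 3 genes did not overlap in any library.

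Zc3h12a was lower than Zc3h12d by a log2 ratio of -0.96 ± 0.06 (SD, n = 4), or 1.95-fold, and exceeded Zc3h12c by 3.55 ± 0.10, or 11.7-fold. Zc3h12d exceeded Zc3h12c by 4.51 ± 0.09. Each order held in 4 of 4 libraries (exact sign-flip p = 0.125). Of the family's sum of 220.2 ± 4.67 TPM, Zc3h12d gave 64.2 ± 0.926%, Zc3h12a 33.0 ± 0.94% and Zc3h12c 2.78 ± 0.17%. Zc3h12a also stood above Rc3h1, with which it shares target transcripts, by a log2 ratio of 0.35 ± 0.04 in TPM. In CPM, which does not correct for the longer Rc3h1 transcript, that ratio turned to -1.62.

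With the deposited lengths, the stabilisers stood in the middle of the order, while in CPM Arid5a ranked 1 and Elavl1 ranked 2. Arid5a (chr1:36307733-36324029, plus strand), which counters Regnase-1 on Il6 mRNA in mice, was at 81.7, 81.7, 77.0 and 74.7 TPM in replicates 1 to 4. Elavl1 (chr8:4285382-4325413, minus strand) was at 64.6, 63.2, 64.1 and 61.5 TPM, a narrow range. Against their counterparts, Arid5a exceeded Zc3h12a by a log2 ratio of 0.12 ± 0.06 (SD, n = 4), and Elavl1 exceeded Zfp36 by 0.58 ± 0.06, each in 4 of 4 libraries (exact sign-flip p = 0.125). With principal transcript lengths they were 1.48 and 1.12, and in CPM 2.24 and 2.16. Set against the sum of the ZFP36 family, Elavl1 was lower by a log2 ratio of -2.25 ± 0.04, or 4.74-fold. This ratio was -1.44 with principal transcript lengths and -0.59 in CPM.

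Gene length moved Arid5a more than any other regulator. The deposited tables join all exons of a gene, which gives Arid5a 12540 bases, 2.70 times its principal transcript of 4640 bases, and Elavl1 10363 against 5743. With principal transcript lengths for all genes, Arid5a was at 148 ± 6.49 TPM (SD, n = 4) and stood first, above Zc3h12d at 98.4 ± 2.86, Zfp36l1 at 91.8 ± 2.29 and Zfp36l2 at 87.9 ± 1.87. Elavl1, at 79.5 ± 1.67, passed Zc3h12a, at 52.9 ± 1.62. These were the 4 of 45 pairs that turned, and Arid5a over Zc3h12a grew to a log2 ratio of 1.48. Rc3h2 and Zc3h12c were the lowest on either scale. Which isoforms the cells made was not measured, so the place of Arid5a in the order is uncertain.

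**Figure D2:**
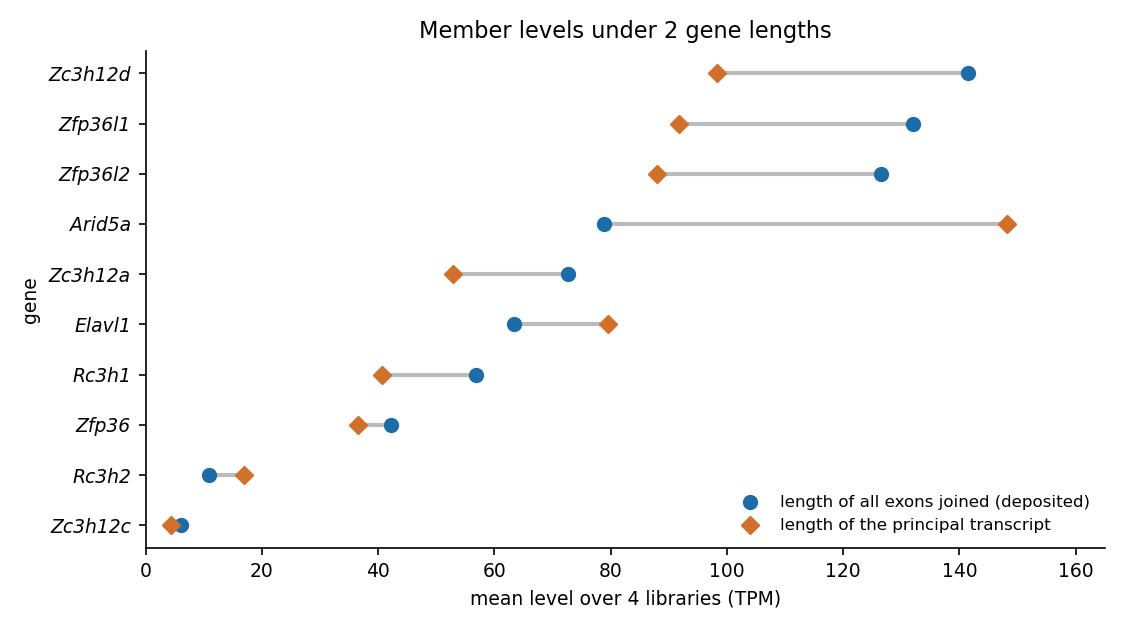
Mean level of each regulator over 4 libraries in TPM, with the deposited length of all exons joined (circles) and with the length of the principal transcript (diamonds). Arid5a lies at 148 TPM with its principal transcript, above all others, and at 78.8 TPM with all exons joined.

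Little overlap or sequence shared with other genes was found where it was sought. No exon base of the 10 regulators overlapped an exon of another gene on the same strand in the deposited tables. Of all 100-base windows of the principal transcripts, 0.415% of Zfp36l1 also occurred in its pseudogene Zfp36l1-ps and 0.112% of Zfp36 in S100a7a, and 0% in the other 8. Exon bases outside the principal transcripts were counted but not searched for shared windows. The principal transcript has 4640 bases against 12540 exon bases for Arid5a, and 8799 against 19624 for Rc3h2.

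The next comparison asked whether any regulator varied between libraries more than genes of like level. None of the 10 was called by a deviance test that used the trended dispersion of edgeR, each with a Benjamini-Hochberg adjusted p of 1.00 over all genes tested, beside 0.523% called of the 12434 genes. No regulator reached an unadjusted p under 0.05 either (4.48% of all genes tested did), while a Poisson deviance called 4. The median SD of log2 CPM was 0.0353 for the 10 and 0.0696 for all genes tested, many of which have far lower counts. Rc3h2 had the lowest unadjusted p of the 10, at 0.201, with a ratio of highest to lowest library of 1.15. That fit included the sex-linked genes that divide the libraries. Without chromosomes X and Y, the coefficient of variation at the common dispersion was 0.0390 in place of 0.0535, and 0 regulators were called. The deviance test then gave unadjusted p = 0.0843 for Rc3h2 and 0.237 for Arid5a, which had 0.708 before. Without replicate 3 it gave 0.0462 for Rc3h2, which was not called.

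**Figure D3:**
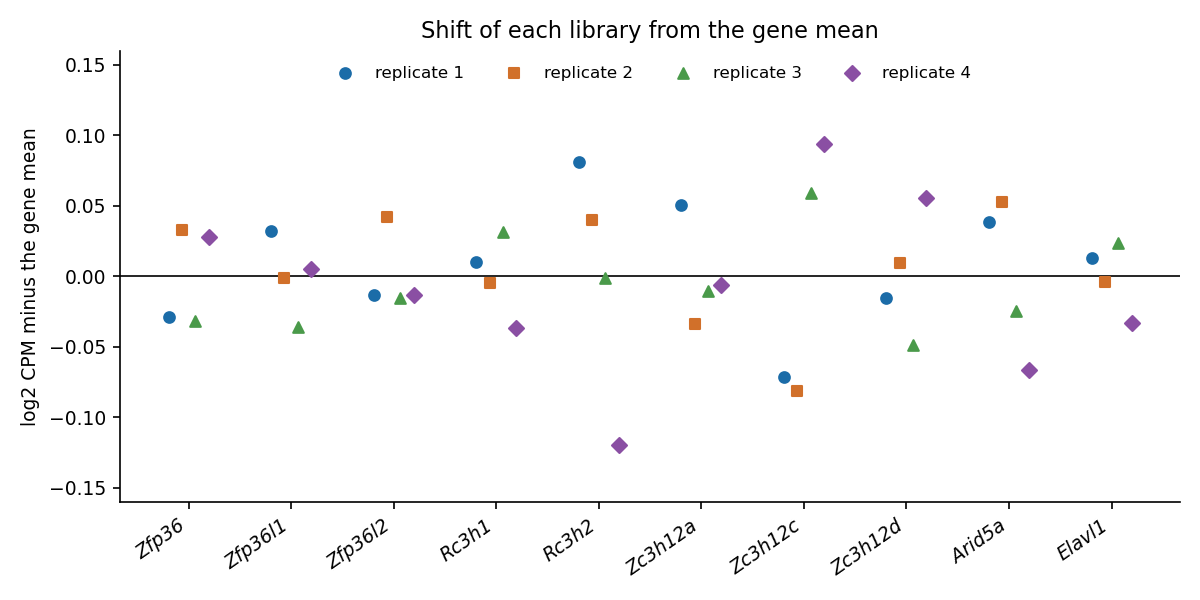
Log2 CPM of each regulator in each library minus the gene's mean over the 4 libraries. Rc3h2 has the widest fall, to -0.12 in replicate 4, and Zc3h12c the widest rise, to 0.09 in the same replicate.

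The Poisson deviance, which allows for counting noise alone, called 4 of 10 regulators at an adjusted p under 0.05, a share near the 36.6% of all genes tested. They were Arid5a (adjusted p = 1.24e-09), Rc3h2 (0.000104), Zc3h12d (0.000287) and Rc3h1 (0.0356). Arid5a, with the most counts, had a coefficient of variation of TPM of 4.44% where counting alone gives 0.927%. Zfp36 varied by 2.27%, under the 2.41% of counting noise, so no spread beyond counting was detectable at this depth. For Zc3h12c, the least counted, the values were 5.62% and 4.54%.

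The highest TPM lay in replicate 1 for 5 regulators, in replicate 2 for 3 and in replicate 4 for 2. The lowest lay in replicate 2 for 2, in replicate 3 for 4 and in replicate 4 for 4. Replicates 1 and 2 are also the ones that stood apart in Xist and Ddx3y, and the part of that division in these values was not tested. How many of all genes have their extremes in the same libraries was not counted. These counts are therefore not read as a trait of the regulators. On the CPM scale the shifts were small. In replicate 1, 6 of 10 lay above their mean log2 CPM, against 5 in replicate 2, 3 in replicate 3 and 4 in replicate 4, and median shifts of the 10 lay between -0.013 and 0.0115. Arid5a and Rc3h2 were lowest in replicate 4, at shifts of -0.07 and -0.12, where Zc3h12c and Zc3h12d were highest, at 0.09 and 0.06.

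**Figure D4:**
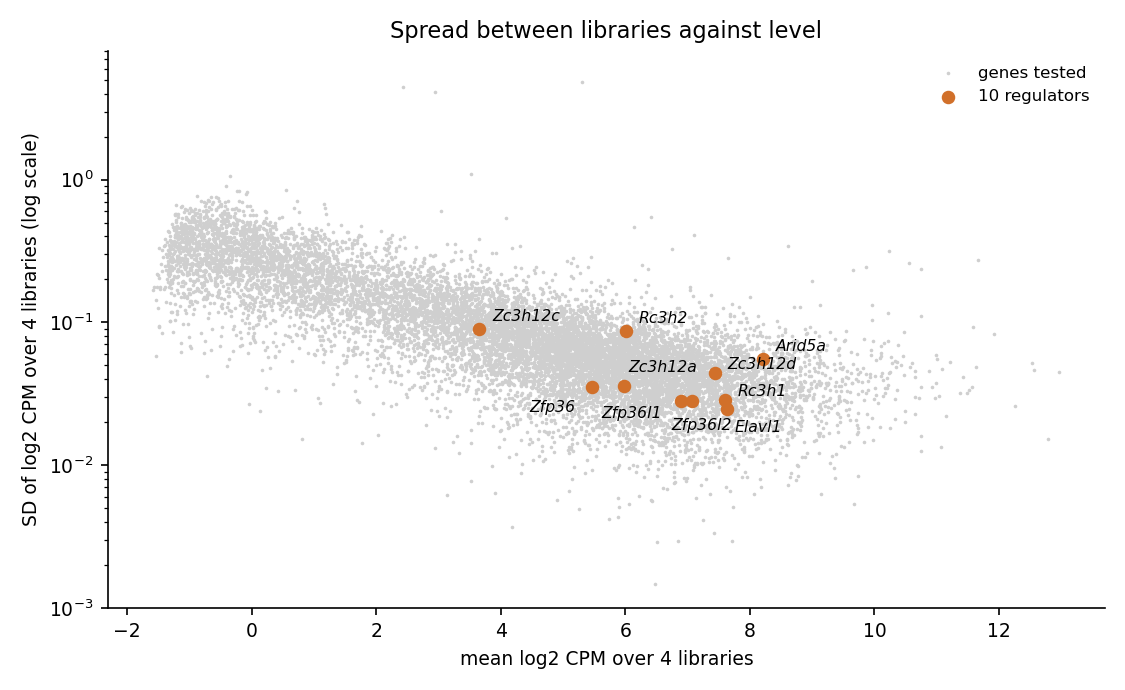
SD of log2 CPM over the 4 libraries (log scale) against mean log2 CPM for the 12434 genes tested (grey) and the 10 regulators (orange). The regulators lie between 0.0248 (Elavl1) and 0.0897 (Zc3h12c), inside the cloud of genes of like level.

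The machinery that the regulators recruit was detected almost throughout. All 10 CCR4-NOT subunits measured were at 1 TPM or more in every library, with a median of 92.1 TPM. They were led by the deadenylase Cnot6 (174 ± 6.18 TPM, SD, n = 4), Cnot9 (144 ± 6.05) and Cnot2 (117 ± 3.38), and lowest was Cnot6l (31.9 ± 0.97). Of the other deadenylases, Parn was at 66.4 ± 1.94, Pan3 at 14.4 ± 0.579 and Pan2 at 11.6 ± 0.684 TPM. Decapping and 5′-3′ decay genes were all detected, 9 of 9, from the helicase Ddx6 (152 ± 4.77), Edc4 (79.8 ± 2.54) and Patl1 (75.7 ± 2.96) to Dcp1b (3.81 ± 0.552).

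Of 13 genes of the RNA exosome and its helpers, 12 were detected, led by Exosc2 (175 ± 5.12 TPM), Exosc3 (175 ± 4.21) and Exosc10 (138 ± 3.33), with Exosc5 (23.1 ± 1.25) the lowest of them. Exosc6 was listed at 0 counts, and 100% of its exon bases overlap exons of Aars. Other AU-rich element binders were high, with Ybx1 at 1450.0 ± 50.8 TPM, Pcbp1 at 1104 TPM, Khsrp at 242 ± 7.10 and Tia1 lowest at 8.28 ± 0.17.

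Genes that control the regulators were detected in 13 of 13 cases. Malt1, the protease that cleaves Regnase-1 and the Roquins, was the highest at 449 ± 20.2 TPM, and its partner Bcl10 stood at 41.2 ± 0.852. Mapkapk2 (373 ± 20.1) and Mapkapk3 (332 ± 15.9), kinases of the p38 pathway, the first of which phosphorylates tristetraprolin, came next. Upf1, the helicase that works with Regnase-1, was at 172 ± 2.62 TPM, and Btrc, part of a ubiquitin ligase that marks Regnase-1, was the lowest at 12.7 ± 0.642.

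Paralogues outside the 10 were mostly silent. The neuronal genes Elavl2, Elavl3 and Elavl4 had 0 to 2 counts in any library, and Zfp36l3, which is rodent-specific, had 0 to 1, all under the floor of 3 counts that a count of 0 allows. That floor covers counting error only. Zc3h12b was at 0.978 ± 0.105 TPM. N4bp1, which has a nuclease domain like that of the Regnases, was at 24.5 ± 1.59, and Arid5b at 10.9 ± 0.674.

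Transcripts reported as targets of the ZFP36 family covered the widest range. Of 18, 11 were at 1 TPM or more in every library. Il17a stood highest at 4436 ± 179 TPM, followed by the growth cytokine Il2 (1407 ± 84.6) and by Tnf (607 ± 16.9), at 631, 591, 601 and 606 TPM in replicates 1 to 4. The lowest detected was Il3 (3.74 ± 2.41), and Il6, Ifng, Cxcl1 and Ccl2 had 0 to 3 counts in each library. Beside a median of 7.02 TPM for those 18, reported Roquin and Regnase-1 targets had 10 of 11 detected and a median of 469 TPM. Ctla4, an inhibitory receptor, led with 1907 ± 82.9, then Il2 and the costimulator gene Tnfrsf4 (923 ± 53.4), while Nfkbiz (25.1 ± 0.748), which drives Il17a in Th17 cells, was the lowest detected. Of 4 transcripts reported as stabilised by ARID5A, Tnfrsf4, Stat3 (211 ± 6.95) and Tbx21 (10.9 ± 1.36) were detected and Il6 was not. These lists share members, so their counts are not separate. They were chosen with earlier results of these data known, so a difference in median between lists is not read as a trait of either class of targets. Over all lists, from the machinery to the targets, 79 of 89 genes could be tested for variation between libraries and 0 were called with edgeR, beside 0.523% of all genes tested. An unadjusted p under 0.05 was reached by 2 (Il3 and the paralogue N4bp1), beside 4.48% of all genes tested, and the Poisson deviance called 51 of the 79, beside 36.6%. That deviance calls smaller spreads in genes with more counts, and the lists were not matched to all genes for counts.

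Several regulators carry such motifs in their own transcripts. The AU-rich heptamer shown above occurred in the 3′ UTR of 7 of 10 regulators, against 26.7% of 20223 protein-coding 3′ UTRs, but the regulators' 3′ UTRs are longer (median 2558 against 882 bases). Counts are of sites on the transcript strand and overlapping sites count separately. Zfp36 held 3 heptamers in 774 bases, and 1.27% of 3′ UTRs of like length (0.8 to 1.2 times) hold as many. Zfp36l1 and Zfp36l2 also held 3 each, a number that 4.21% and 4.2% of 3′ UTRs of like length reach. Elavl1 held 8, all within a short stretch that starts at the site shown, and 0.242% of 3′ UTRs of like length hold as many. For Rc3h1, Rc3h2 and Zc3h12c the shares were 48.6%, 18.5% and 30.0%, and no match was found in Zc3h12a, Zc3h12d or Arid5a.

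Of the reported ZFP36 family targets with a complete 3′ UTR, 15 of 17 held the heptamer, at 5.97 per kilobase, against 0.774 in the regulators and 0.314 in all 3′ UTRs. Csf2 held 9, Tnf 8, Il17a 3 and Il2 3. The list was compiled from transcripts known to be bound, so this count is a description. The letters TTCNNNGAA, searched for the decay hairpin, occurred in 4 of 10 regulators (Rc3h1, Rc3h2, Arid5a and Elavl1). They occurred in 5.18% of all 3′ UTRs and, for 3′ UTRs as long as that of Rc3h1, in 26.9%. Among reported Roquin and Regnase-1 targets 5 of 11 held them, beside 3 of 17 reported ZFP36 family targets. These lists were compiled from transcripts reported as targets, so both counts are a description. A match is a stretch of letters and does not show a folded hairpin or binding.

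**Figure D5:**
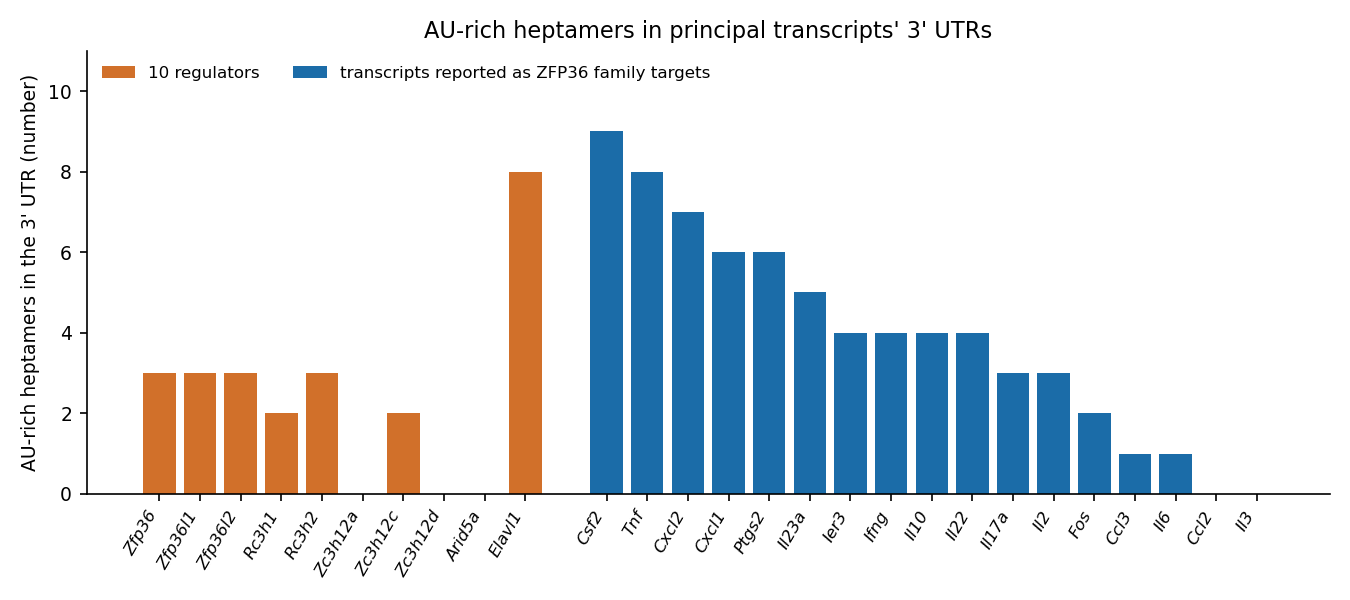
Number of AU-rich heptamers in the 3′ UTR of the principal transcript of the 10 regulators (orange) and of 17 transcripts reported as ZFP36 family targets (blue). Elavl1 holds 8 and the 3 ZFP36 family genes hold 3 each, beside 9 in Csf2 and 8 in Tnf.

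Genes most like each regulator were sought by the smallest Euclidean distance of log2(TPM + 0.1) over the 4 libraries, a measure dominated by level. They were Ilkap and Dhx36 for Zfp36, Casp8 and Arfgap2 for Zfp36l1, and Tmem248 and Pelp1 for Zfp36l2. Spc24 and Phc2 were nearest to Rc3h1, Socs6 and Il10rb to Rc3h2, Ntan1 and Dnaja3 to Zc3h12a, Eif3j2 and Rab32 to Zc3h12c, and Pom121 and Rbmxl1 to Zc3h12d. For Arid5a they were Sp1 and Twsg1, and for Elavl1 Acat1 and Map4. The distances ranged from 0.0161, for Spc24, to 0.0578, for Il10rb.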

How the data were processed

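RNA sequencing of 4 libraries of mouse Th17 cells was used. The deposited values are raw fragment counts. Per the file headers, the authors counted read pairs over exons of GENCODE M13 with featureCounts (version 1.4.6-p4), both ends mapped and reverse-stranded, and the header names no option for multi-mapping or multi-gene fragments. The labels name mm10. The alignment's name in the header carries STAR without a version. TPM and CPM were computed here from counts and deposited exon lengths. Symbols, transcripts and 3′ UTRs came from GENCODE M21 on the same build, and 50376 of 50600 gene IDs matched. The principal transcript is the one APPRIS marks; like length means 0.8 to 1.2 times. Detected means at least 1 TPM in each of the 4 libraries. Pairs of genes were compared within libraries as log2 ratios of TPM + 0.1 with an exact sign-flip test. Variation was tested in R 4.3.3 using edgeR 4.0.16 and TMM scaling, its default filter, an intercept-only fit and the deviance against chi-square with 3 degrees of freedom, adjusted by Benjamini-Hochberg over all genes tested. A quasi-likelihood contrast needs groups, of which there is 1. The script was tested on simulated data. Alternatives were DESeq2 1.42.0 size factors, other dispersions, filters, scales and pseudocounts, and each replicate left out; principal lengths and leaving out chromosomes X and Y were added after the data were seen. Members and lists were chosen with earlier results of these data known. Named genes were all members, the 3 highest and the lowest detected of each list, all paralogues outside the set and the 2 nearest genes to each member; others named were chosen after their values were seen. Some genes of the lists are not reported by name here.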

Additional observations from a re-analysis of the deposited data

Results flagged for a closer look

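Of 24 quantities examined (the TPM of each regulator, the fixed log2 ratios and the family sums), 1 had a library far from the others. The log2 ratio of Zfp36 over Zfp36l2 was -1.60, -1.59, -1.60 and -1.54 in replicates 1 to 4, so replicate 4 stood apart, and its gap to the next value was 0.881 of the whole range. Chance flags about 1 in 20 such groups of 4, and the ratio without replicate 4 was -1.59.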

How the results depend on the processing

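Of the fixed pairs, 2 turned in CPM, which does not correct for length: Zfp36l2 over Zfp36l1 to 0.18 and Zc3h12a over Rc3h1 to -1.62. A pseudocount of 1, principal lengths and leaving out a replicate turned no fixed pair, and the number of pairs of regulators in a single order was 45 in every setting run except CPM, where it was 44. That is agreement among libraries: against the TPM order, 14 of the 45 pairs turned in CPM and 4 with principal lengths. The median level of the regulators, 68.0 TPM, was 69.8 without mitochondrial genes, 70.3 over protein-coding genes and 66.2 with principal lengths. The number of genes called variable, 65, was 113 without the filter, 4550 with the Poisson deviance, 123 at the common dispersion, 41 with a ratio of at least 1.5, and 32 to 49 without a single replicate (35 without replicate 1, 32 without replicate 4); the cause was not tested. It was 91 without chromosomes X and Y. The number of regulators called was 4 with the Poisson deviance and 0 in each other setting. No paired analysis was possible because all libraries form a single group. Totals limit precision most for Zc3h12c.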

Other observations

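Il3, which encodes a growth factor of blood cell precursors, had the lowest unadjusted p for variation between libraries among the listed genes that passed the filter on low counts. It was at 7.26, 2.30, 2.09 and 3.32 TPM in replicates 1 to 4, from 39, 16, 23 and 27 counts, and was not called by the edgeR deviance test (adjusted p = 0.0712 over all genes tested). It was chosen after its values were seen.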
